A study of Arabidopsis thaliana with 9 samples.

Results

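H3K4me3 regions that carried a called peak in some libraries of the series and not in others were described in Arabidopsis thaliana seedlings of 3 genotypes. Overlapping peaks of the 6 H3K4me3 peak lists were merged into 14670 regions on chromosomes 1 to 5, and the regions were selected on the presence of a peak (at least 1 bp) in 2, 3, 4 or 5 of the 6 libraries. Of the 14670 regions, 911 met this rule, 13483 had one in every library and 276 in a single library. The presence of peaks thus chose the regions, so presence, length and score are given below as a description, with no test of one genotype against another.

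Trimethylation of histone H3 at lysine 4 marks the first part of genes that are being transcribed, and broad surveys find it on most expressed genes. Trithorax-type enzymes such as ATX1 and ATX2 place methyl groups on this residue. JMJ28 belongs to the JmjC-domain family, whose members are best known as histone demethylases. In a whole seedling a weak peak can come from a mark present in few cells or from little mark in many cells, and the peak lists cannot tell these apart.

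All samples were 12-day-old seedlings in the Col-0 background, grown under 16 h of light and 8 h of darkness on sucrose medium. The wild type, jmj28-2 and atx1/2 had 2 H3K4me3 libraries each. The labels give neither the alleles in atx1/2 nor the number of plants behind a library, and nothing in them says that replicate libraries stem from separate cultures. An H3 sample of each genotype was not analysed here. By their names, both peak lists of a genotype belong with the H3 sample of that genotype, so a property of that H3 sample and of the genotype cannot be told apart where both libraries behave alike.

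The lists held 14291 to 14493 peaks on the 5 chromosomes, with the most in atx1/2. Their depth in reads is unknown. The lowest score in a list was 20.01 to 20.08, and the median score was 459.65 to 477.37 in Col-0 and jmj28-2 and 526.85 and 537.95 in atx1/2. Of 7 genes of green tissue, 6 had a peak in all the libraries, and the remaining one, CAB1, lay in 2 member regions. Of 5 root genes SCR had a peak in all the libraries, and SHR, PLT1, WER and IRT1 had none in any. The 4 seed storage genes and both matched pollen genes had no peak either. None of JMJ28, ATX1, ATX2, CO, FLC and FT was a member: all 6 libraries had a peak on each of the first 5, and none on FT.

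Member regions held weak peaks. Ranked by score within its own list, the median member peak stood at percentile 3.28, against 52.7 for peaks in regions held by all 6 libraries. The rank was lower the fewer libraries held the peak. Its median was 4.15 in regions with a peak in 5 libraries, 3.64 in 4, 2.43 in 3 and 2.03 in 2. Just outside the rule, peaks found in 1 library had a median of 1.13. Peaks of members were also narrower, with a median of 1400 bp of peak per library against 1849 bp in the regions held by all 6. Only 113 of the 911 members (12.4%) reached a score of 100 in any library, whereas 13131 of the 13483 regions held by all 6 (97.4%) did. Of the 271 regions whose best peak lay above percentile 3 and up to 5, 224 (82.7%) were members, and of the 12070 whose best peak lay above percentile 20, 7 were. Score and presence come from the same lists, and low scores and incomplete presence went together.

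**Figure D1:**
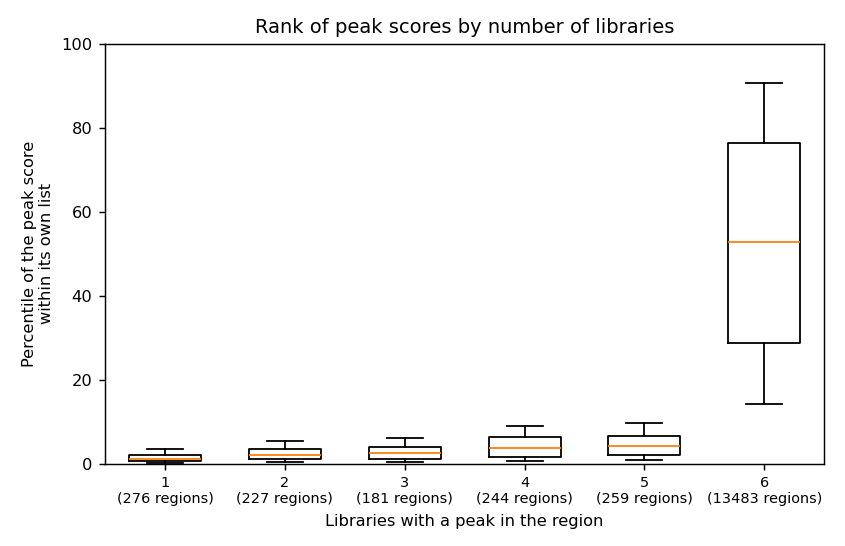
Percentile of the peak score within its own list (vertical axis) by the number of libraries with a peak in the region (horizontal axis). Boxes show the quartiles with the median and whiskers the percentiles 10 and 90. The boxes for 1 to 5 libraries lie at the bottom of the scale, with medians of 1.13 to 4.15, and the box for 6 libraries has a median of 52.7.

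The 7 members with a best peak above percentile 20 are named here because they are few, not by a rule. CRK29 stood at percentiles 81.7 and 77.5 in Col-0 and at 88.4 and 86.3 in atx1/2, with no peak in either jmj28-2 library. B120 stood at 20.5 and 37.2 in Col-0 and 19.7 and 17.1 in atx1/2, and RK3 at 11.5, 11.9, 22.0 and 21.8 in the same order. All 3 are receptor-like kinase genes near JMJ28, and their regions follow each other with no other region between. AT1G29740 (chromosome 1, 10406712 to 10408652, TAIR10) had 1909 and 1941 bp of peak in Col-0, at percentiles 41.5 and 43.4, and no peak in either mutant. It was the only region with a peak in Col-0 alone that reached a score of 100 in both libraries. BB, which encodes the ubiquitin ligase BIG BROTHER that limits organ size, lay with AT3G63540 in the last region of chromosome 3. Its peaks covered 1928 and 2133 bp in the wild type, 1921 bp in jmj28-2 replicate 1 and 1836 bp in atx1/2 replicate 1, and none in replicate 2 of either mutant. AT1G62085 stood at percentiles 29.4 and 43.3 in Col-0 and 29.8 and 26.0 in jmj28-2. In atx1/2 it stood at 0.424 in replicate 1 and had no peak in replicate 2. AT1G66920 stood at 23.6 and 16.2 in Col-0 and 8.41 and 9.47 in atx1/2. In jmj28-2 it stood at 4.99 in replicate 1 and had no peak in replicate 2.

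Members in which the libraries of a genotype agreed were counted and set beside other pairings of the libraries. In 291 of the 911 members (31.9%) both libraries of every genotype were alike, that is, a whole genotype had the peak or lacked it. Over all regions this makes 1.98%. Each of the other ways to put the 6 libraries into 3 pairs gave between 39 and 162 members alike. The real pairing was the highest of all 15 (exact permutation test over the libraries, one-sided p = 0.0667, the smallest p that the design allows). With 15 pairings no outcome could have passed 0.05, so the test cannot decide whether peak presence followed genotype. The counts are a description of regions that presence itself selected. The other members had at least 1 genotype whose 2 libraries differed. The rule fixes part of this, since an odd number of libraries must split a genotype. This held for the 181 members with a peak in 3 libraries and the 259 with a peak in 5. Of the members with a peak in 2 or 4 libraries, 147 of 227 and 144 of 244 were alike in every genotype. In 426 members 1 genotype was split, in 180 members 2 genotypes were and in 14 all 3 were. Split pairs were found in 304 members for Col-0, 307 for jmj28-2 and 217 for atx1/2.

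Among the 227 regions with a peak in exactly 2 libraries, 147 (64.8%) had it in both libraries of 1 genotype. The other 12 pairs of libraries held 1 to 11 regions each. Among the 244 regions with a peak in 4 libraries, 144 (59.0%) lacked it in both libraries of 1 genotype, and the other 12 pairs held 3 to 14 regions each. The 6 patterns made of whole genotypes were therefore each more frequent than any mixed pattern of the same size. The closest case was the peak in jmj28-2 alone, with 14 regions against at most 11 for a mixed pair.

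**Figure D2:**
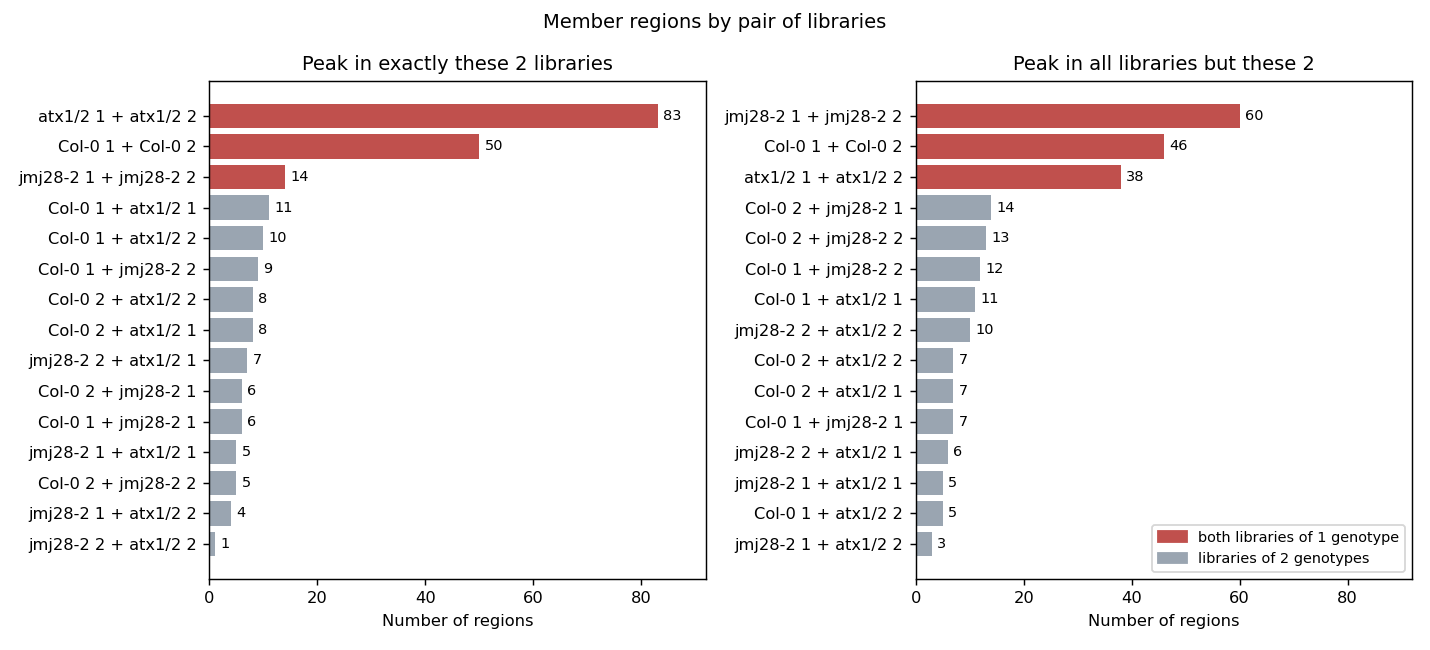
Number of member regions (horizontal axis) for each pair of libraries (vertical axis) that alone held the peak (left) or alone lacked it (right). Pairs of 1 genotype are red and mixed pairs grey. The red bars run from 14 to 83 regions on the left and from 38 to 60 on the right, and no grey bar exceeds 14.

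The genotypes did not contribute equally. A peak was present in 646 and 635 members in the atx1/2 libraries, in 545 and 523 in the Col-0 libraries and in 467 and 452 in the jmj28-2 libraries. Both jmj28-2 libraries lacked the peak in 298 members, both Col-0 libraries in 225 and both atx1/2 libraries in 162. The atx1/2 lists were also the longest and had the highest median scores, as given above, and their part in these counts was addressed only by taking equal numbers of peaks. With 14291 peaks from each list, atx1/2 alone had 48 regions in place of 83, and the regions lacking a peak in atx1/2 alone numbered 58 in place of 38.

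To read the patterns in libraries that had not chosen them, regions that differed between the libraries numbered 1 of a pair of genotypes were read in the libraries numbered 2. Of 316 regions with a peak in Col-0 replicate 1 and not in jmj28-2 replicate 1, 141 (44.6%) differed the same way between the libraries numbered 2 and 27 (8.54%) the opposite way. Over all regions 2.31% differed that way between the libraries numbered 2. That share includes the 13483 of 14670 regions with a peak in all 6 libraries, which cannot differ and could not be chosen. It is therefore low by construction, and the 2 shares cover unlike sets of regions. For a peak in Col-0 and not in atx1/2 the share was 45.7% (111 of 243), against 1.75% of all regions. In both comparisons the same direction recurred in fewer regions than it failed to.

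A peak in atx1/2 and not in Col-0 recurred in 50.1% (180 of 359 regions), against 2.55% over all regions. A peak in atx1/2 and not in jmj28-2 recurred in 46.6% (180 of 386), against 2.69%. The share was lower where jmj28-2 held the peak, with 34.4% (74 of 215) for no peak in Col-0, against 1.72%, and 37.3% (63 of 169) for no peak in atx1/2, against 1.29%. Choosing in the libraries numbered 2 and reading in those numbered 1 gave 29.4% to 48.1%. The difference between these shares was not tested, and they share libraries. The shares over all regions again include the regions that cannot differ.

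**Figure D3:**
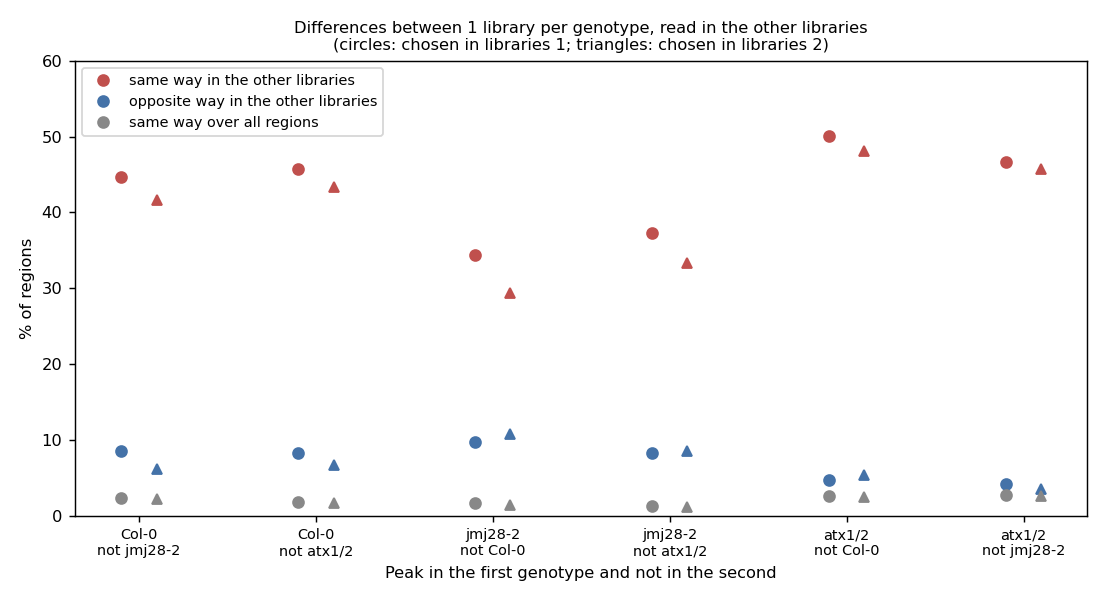
Share of regions in percent (vertical axis) that differed between genotypes in 1 library each and did so the same way (red) or the opposite way (blue) in the other libraries, with the share over all regions (grey). Circles are regions chosen in libraries 1 and triangles regions chosen in libraries 2, for each ordered pair of genotypes (horizontal axis). Red points lie between 29.4% and 50.1% and blue points between 3.55% and 10.7%. The grey share includes regions with a peak in all 6 libraries, which cannot differ.

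A peak in Col-0 and in neither mutant was found in 50 regions (0.341% of all regions), 46 of them with a protein-coding gene. Their median peak stood at percentile 2.06. Counting only peaks with a score of at least 100 gave 32 regions of this pattern. Only 1 of the 50 reached that score in both Col-0 libraries, so nearly all of the 32 were other regions. AAE18, an acyl-activating enzyme gene that shares its region with the splicing factor gene SCL33 (chromosome 1, 20632613 to 20634701), carried 1778 and 2089 bp of peak in Col-0 and none in the other 4 libraries. The transporter gene ABCC11 had 1145 and 1270 bp. In these regions both Col-0 libraries held a peak at percentile 5.70 or above, and neither mutant overlapped them. SK4, which encodes a SKP1-like subunit of ubiquitin ligases, had 1661 and 1753 bp in a region shared with AT1G20150. CRK26, a receptor-like kinase gene, had 1521 and 1524 bp, but this gene also lay in a region held by all 6 libraries.

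Core cell cycle genes lay in member regions of differing patterns. CDKB2;1, a kinase of the entry into mitosis, measured 1794 and 1852 bp in the wild type and none in the others. The B-type cyclin gene CYCB1;5 had 663 and 687 bp, also in Col-0 alone. Of 104 core cell cycle genes, 88 lay in regions held by all 6 libraries and 7 (6.73%) in member regions, and 2.95% of all protein-coding genes did the latter. CDKB1;1, a kinase of the same class, had 1658 and 1265 bp in Col-0, with 1361 bp in jmj28-2 replicate 2, with none in the other 3 libraries. CYCB1;1, a mitotic cyclin, had 1894 bp in Col-0 replicate 2 and 1751 bp in atx1/2 replicate 2 only. MCM2, a subunit of the replicative helicase, lacked a peak in jmj28-2 replicate 2 alone. CYCD4;2 had a peak in jmj28-2 alone, with 1427 and 1382 bp. AtCDC48B had 1493 and 1726 bp in Col-0, 1492 bp in jmj28-2 replicate 1 and 1566 bp in atx1/2 replicate 2. For the 7 regions of this list both Col-0 libraries had the peak in 5 (against 41.9% of all members), both jmj28-2 libraries in 1 (against 33.6%) and both atx1/2 libraries in 1 (against 58.4%). CDKB1;1, CYCB1;1, MCM2 and AtCDC48B were chosen after their values were seen.

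A peak in jmj28-2 alone was the rarest pattern of whole genotypes, with 14 regions (0.0954% of all regions), each with a protein-coding gene. MSL4, a gene of the mechanosensitive channel family (chromosome 1, 19958290 to 19959784), had 1300 and 1495 bp in the jmj28-2 libraries. The plasma membrane proton pump gene HA2 had 1286 and 1299 bp in a region of its own, and the same gene also lay in a region held by all 6 libraries. ABCG6, a transporter gene of the suberin barrier, had 1743 and 1518 bp. No Col-0 or atx1/2 library had a peak in these regions. The cyclin gene CYCD4;2 had 1427 and 1382 bp, at percentiles 9.97 and 3.76, and SGR9, which encodes a ubiquitin ligase of shoot gravitropism, had 1362 and 1460 bp. None of the 14 regions reached a score of 100 in both jmj28-2 libraries. The pattern numbered 23 regions with equal numbers of peaks and also 23 when only peaks with a score of at least 100 counted. With that score minimum none of the 14 was among the 23.

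A peak in atx1/2 alone was found in 83 regions (0.566% of all regions), of which 73 held a protein-coding gene. This was the highest count of the 6 patterns in the lists as deposited, but not with equal numbers of peaks, where it was 48 against 58 for Col-0 alone. The strongest with a symbol was that of EXPA14 (chromosome 5, 22808598 to 22810255), an expansin gene whose product loosens cell walls. It had 1658 and 1495 bp, at percentiles 10.8 and 10.4, and was the only one of the 83 with a score of 100 in both libraries. CKX4, which encodes a cytokinin-degrading oxidase, had 1445 and 1306 bp, and the threonine aldolase gene THA2 had 1278 and 1264 bp. Both were held by atx1/2 alone, and the lowest of these 4 peaks stood at percentile 4.03. The bZIP transcription factor gene TGA9 had 1258 and 1287 bp, in addition to a region on the same gene held by all 6 libraries, and VPS24.2, of the endosomal sorting complex ESCRT-III, had 1158 and 1235 bp. Among genes of gibberellin inactivation and auxin response, ATGA2OX1 (1517 and 1506 bp) and the SAUR genes AT4G34770 (1127 and 1144 bp) and AT2G36210 (1266 and 1163 bp) had a peak in atx1/2 alone. AT4G34770 follows from the naming rule, and the other 2 were chosen after their values were seen.

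A peak in both mutants and in neither Col-0 library was found in 46 regions (0.314% of all regions), 40 with a protein-coding gene. GA3OX1, which encodes the enzyme that makes bioactive gibberellin (chromosome 1, 5345073 to 5346475), had 1391 and 1351 bp in jmj28-2, with 1400 and 1390 bp in atx1/2. The 4 peaks stood at percentiles 5.39 to 11.8. The pectin methylesterase gene ATPMEPCRC had 2902 and 2779 bp in jmj28-2, with 2943 and 2978 bp in atx1/2, the widest of the 5. GDU1, a gene of glutamine export, had 1385, 1432, 1340 and 1397 bp in the same order of libraries. HWI1, also called PDLP5, encodes a protein of plasmodesmata, the channels between plant cells, and had 1261, 1341, 1429 and 1375 bp. WRKY54, a transcription factor gene of defence and senescence, had 1029 and 1205 bp in jmj28-2, with 1434 and 1492 bp in atx1/2. In all 5 regions the Col-0 libraries lacked a called peak, and the same 2 Col-0 libraries serve as reference for both mutants. None of the 46 reached a score of 100 in all 4 libraries that held it.

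A peak in every library but those of jmj28-2 was found in 60 regions (0.409% of all regions), 56 with a protein-coding gene. CRK29 (chromosome 4, 11403176 to 11406566) had 3355 and 3343 bp in Col-0, with 3322 and 3093 bp in atx1/2. The neighbouring regions of B120 and RK3 had 2072 and 2134 bp and 1758 and 1748 bp in Col-0, and 2076 and 2129 bp and 1901 and 1818 bp in atx1/2. These 3 were the only ones of the 60 with a score of 100 in all 4 libraries, and they span 15045 bp near the mutated gene. MYB48, a MYB transcription factor gene, had 1631 and 1628 bp in Col-0, with 1590 and 1665 bp in atx1/2. PPI2, a proton pump interactor gene, had 1496, 1549, 1557 and 1422 bp in those libraries. Without the 3 kinase genes the highest percentiles of these named regions ended at 13.2.

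Other genes of this pattern lay in the lists of transport and hormone genes. NIP5;1, the boric acid channel gene, had 1300 and 1377 bp in Col-0, with 1512 and 1453 bp in atx1/2. AT3G21670, named NPF6.4 in the gene table, had 3668 and 3700 bp in Col-0, with 3711 and 3614 bp in atx1/2, in a region shared with AT3G21660. ACS7, which encodes an enzyme of ethylene synthesis, had 1909, 1984, 1895 and 2029 bp in the same order and was chosen after its values were seen. NDR1, a membrane protein gene needed for resistance through several immune receptors, had narrow peaks of 757 and 729 bp in Col-0, with 744 and 672 bp in atx1/2. It was the only one of 47 immune signalling genes in a member region (2.13%, against 3.34% of protein-coding genes with a symbol). NAC019, a stress transcription factor gene, had 1191 and 1246 bp in Col-0, with 1427 and 1305 bp in atx1/2. No jmj28-2 library had a peak in these 5 regions.

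A peak in every library but those of atx1/2 was found in 38 regions (0.259% of all regions), 36 with a protein-coding gene. CSLD5 (chromosome 1, 594595 to 598922), a cellulose synthase-like gene of cell plate formation, had 4292 and 4246 bp in Col-0, with 4328 and 4114 bp in jmj28-2. AGD1, a gene of vesicle transport that controls root hair polarity, had 1673, 1559, 1402 and 1554 bp. RAD51B, a gene of DNA recombination repair, had 1324, 1178, 1275 and 1183 bp. Both atx1/2 libraries lacked a peak in all 3 regions. PLE, a microtubule-associated protein gene of the phragmoplast, had 1933 and 3880 bp in Col-0, with 1853 and 1556 bp in jmj28-2. The chloroplast import gene Tic32-IVa had 1369, 1652, 1600 and 1522 bp. None of the 38 reached a score of 100 in all 4 libraries.

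**Figure D4:**
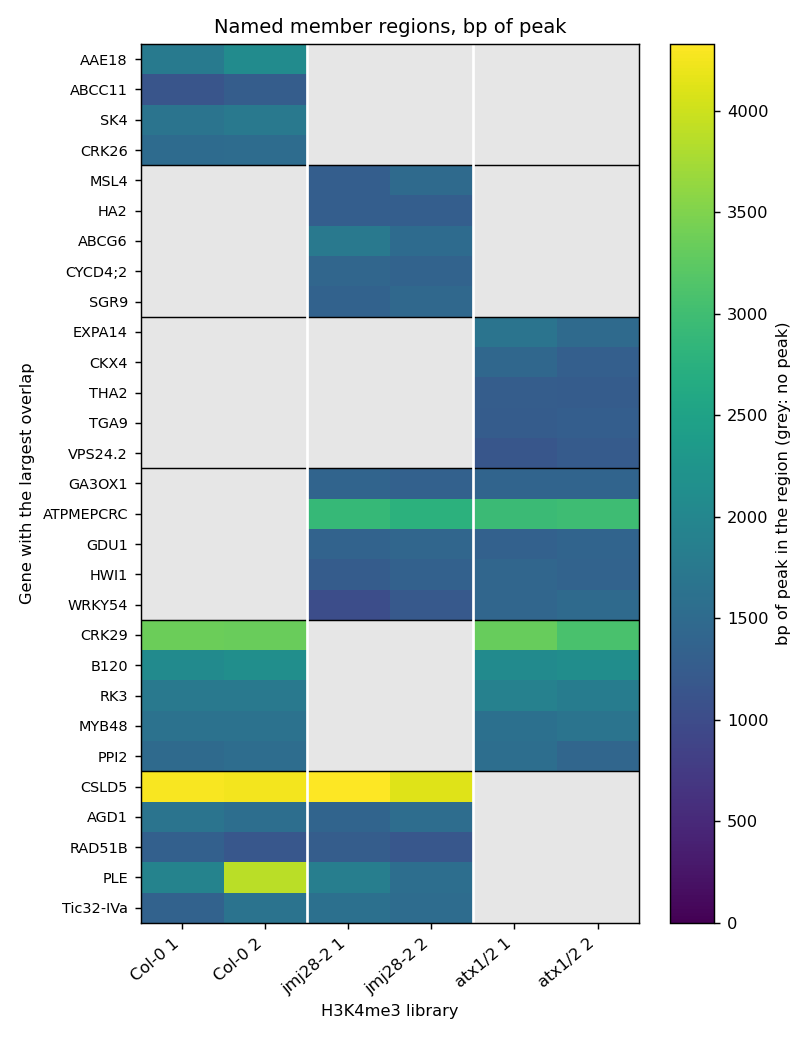
Base pairs of peak (colour) in each H3K4me3 library (columns) for regions with a gene symbol that the naming rule took for the 6 patterns of whole genotypes (rows, in blocks). Grey marks a library without a peak. CSLD5, CRK29 and ATPMEPCRC have 2779 to 4328 bp wherever a peak is present, PLE reaches 3880 bp in Col-0 replicate 2, and the other values lie between 1029 and 2134 bp.

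Regions with a peak in 5 libraries numbered 259. The library without a peak was Col-0 replicate 2 in 62, jmj28-2 replicate 2 in 59, jmj28-2 replicate 1 in 47, Col-0 replicate 1 in 41, atx1/2 replicate 2 in 27 and atx1/2 replicate 1 in 23. The peak in the remaining library of that genotype was often the weaker one. It stood at a median percentile of 2.48, against 4.54 for the median of the other 4 libraries, and it was the lower of these in 200 of the 259 regions (77.2%). The strongest of these regions by the naming rule were those of TRM11, a gene of the microtubule-associated TRM family, PLP8, of the patatin-like family, and the arabinogalactan protein gene AGP31. TRM11 had 1503 bp in Col-0 replicate 1, none in replicate 2 and 1337 to 1457 bp in the mutants, and PLP8 had 1740 bp, none, and 1578 to 1670 bp. AGP31 lacked a peak in jmj28-2 replicate 1 alone.

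In members with 2 to 4 libraries and a split genotype, the strongest by the same rule were BB, described above, PUP15 and MEE47. PUP15, a purine permease gene, had 1776 and 1661 bp in Col-0, with 1876 bp in atx1/2 replicate 2. MEE47 had 2226 and 2037 bp in Col-0, with 1966 bp in the same atx1/2 library. Both thus had a peak in Col-0 and in 1 of the 2 atx1/2 libraries. Among the regions with 3 libraries the most frequent pattern was both atx1/2 libraries with jmj28-2 replicate 2 (27 regions), followed by both atx1/2 libraries with jmj28-2 replicate 1 (24) and with Col-0 replicate 2 (21).

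The genes under member regions were counted beside those under the regions held by all 6 libraries. A protein-coding gene overlapped 847 of the 911 members (93.0%) by at least 200 bp, against 98.5% of the regions held by all 6. Members mostly covered 1 gene: 79 (8.67%) held 2 genes and 3 held more, against 28.0% and 4.84% of the regions held by all 6. In all, 923 protein-coding genes lay in a member region, and 114 of these also lay in a region held by all 6 libraries. The other 809 had their best peak in a member region, which is 2.95% of 27432 protein-coding genes. Of the 64 members without a protein-coding gene, 18 held a pseudogene (7 of them of the plain type and 11 transcribed), 10 a long noncoding RNA and 23 no annotated gene.

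Of 56 cytosolic ribosomal protein genes all lay in regions held by all 6 libraries, as did 65 of 68 proteasome and translation initiation genes and 24 of 25 matched H3K4 methylation and JmjC genes, and none of these 3 lists, which match by symbol, had a gene in a member region. Genes of the same kinds outside the lists can be members: XW6 (AT1G58380), a gene of the small ribosomal subunit chosen after its values were seen, had 757 bp in Col-0 replicate 2, 737 and 720 bp in jmj28-2, with 714 and 760 bp in atx1/2. Every other list had genes in member regions. In bHLH genes the share was 10.7% (6 of 56), in receptor-like kinases 9.09% (14 of 154), in cuticle and lipid genes 6.86% (7 of 102), in cell wall genes 6.67% (22 of 330) and in cytochrome P450 genes 6.41% (15 of 234). It was 6.73% in core cell cycle genes, 6.15% in photosynthesis genes and 2.13% in immune signalling genes. The share was 3.34% over the 10363 protein-coding genes with a symbol. Of genes with a peak in any library it was 15% in bHLH genes, 13.5% in receptor-like kinases and 13.6% in cytochrome P450 genes. In the same measure it was 7.29% in core cell cycle genes, 3.03% in immune signalling genes and 4.49% in genes with a symbol. No list was tested against others, and the lists differ in how many of their genes carry the mark at all.

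**Figure D5:**
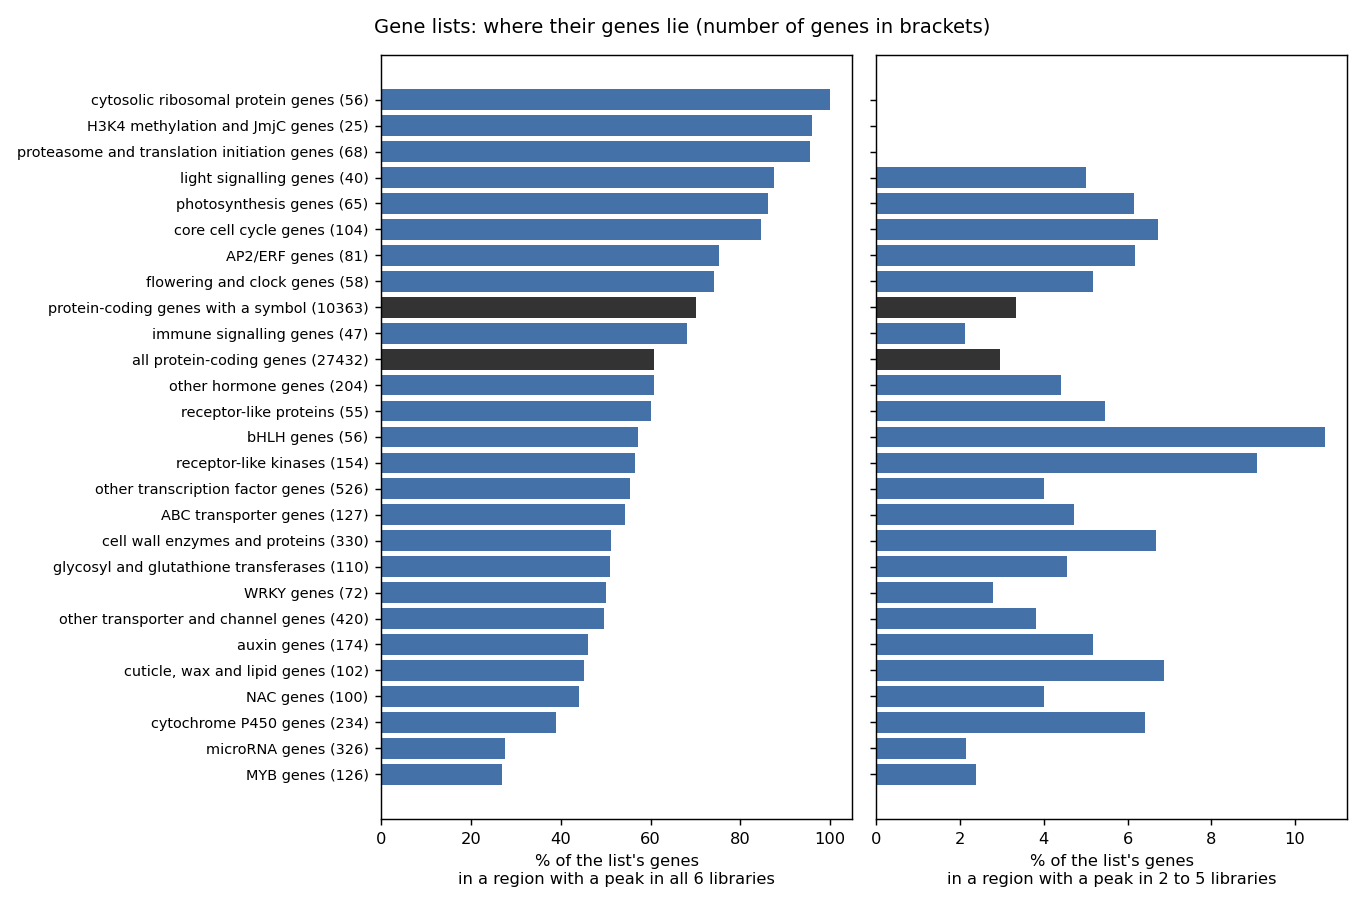
Share of each list's genes in percent (horizontal axes) that lay in a region with a peak in all 6 libraries (left) or, failing that, in 2 to 5 libraries (right), for the gene lists (vertical axis, number of genes in brackets). Dark bars are all protein-coding genes (60.8% and 2.95%) and those with a symbol (70.0% and 3.34%). Ribosomal protein genes reach 100% on the left and 0% on the right, and bHLH genes 10.7% on the right.

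Receptor-like kinases and receptor-like proteins sense ligands at the cell surface, many of them of microbial origin. The 14 kinase genes lay in 12 regions. Both jmj28-2 libraries lacked the peak in 7 of these (against 32.7% of all members), both Col-0 libraries in 2 (against 24.7% of all members) and both atx1/2 libraries in none (against 17.8% of all members). Of the 7, the regions of RK3 and CRK29 belong to the stretch near JMJ28. B120, in the same stretch, was not matched by this list and is not among the 12 regions. CRK21 had 2262 and 2409 bp in Col-0, with 2312 and 2279 bp in atx1/2, and its neighbour CRK22 had 890, 940, 1002 and 993 bp, both with no peak in jmj28-2. The lectin receptor kinase gene AT3G45430 went the other way, with 2072 and 1806 bp in jmj28-2, as well as 1998 and 1805 bp in atx1/2, and no peak in Col-0. IOS1, which acts in immune receptor complexes, had 2254 and 2303 bp in Col-0, with 2145 bp in atx1/2 replicate 2. CRK21, CRK22 and IOS1 were chosen after their values were seen. RLP23 and RLP38 had a peak in Col-0 alone, with 3335 and 3279 bp and 2719 and 2459 bp, and RLP35 had 1073 bp in jmj28-2 replicate 1 and 1043 bp in atx1/2 replicate 1. RLP23 shares its region with VAMP725. The kinase and RLP genes come in clusters of similar copies, and how reads that fit several copies were treated is not given in the sources used here.

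Cell wall genes lay in 22 member regions, of which 8 followed whole genotypes (against 31.9% of all members). Both atx1/2 libraries held the peak in 15 of the 22 (against 58.4% of all members), both Col-0 libraries in 7 (against 41.9% of all members) and both jmj28-2 libraries in 6 (against 33.6% of all members). Besides EXPA14, CSLD5, AGP31 and ATPMEPCRC, the xyloglucan-modifying gene XTR6 lacked a peak in Col-0 replicate 2 alone, with 1509 bp in replicate 1 and 1444 to 1681 bp in the mutants. EXPA9, a second expansin gene, had 1425 bp in Col-0 replicate 2 and 1398 and 1421 bp in atx1/2. XTR6 and EXPA9 were chosen after their values were seen. In the fatty acid elongase family, which builds the very long chains of cuticular wax, KCS10 had no peak in Col-0 replicate 1 and 2737 to 2911 bp in the other 5 libraries. KCS8 lacked a peak in jmj28-2 replicate 2 alone, with 1593 to 1709 bp elsewhere, and LTPG2, a lipid transfer protein gene, lacked one in atx1/2 replicate 2 alone.

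Cytochrome P450 enzymes oxidise hormones and defence compounds. Both atx1/2 libraries held the peak in 10 of their 15 regions (against 58.4% of all members), both jmj28-2 libraries in 7 (against 33.6%) and both Col-0 libraries in 2 (against 41.9%). CYP722A1 had no peak in Col-0 replicate 1 and 1565 to 1732 bp in the other libraries, in a region shared with AT1G19620. CYP71B5 had no peak in Col-0 replicate 2 and 1571 to 1798 bp elsewhere. CYP96A12 had 1926 and 1998 bp in jmj28-2, with 2023 bp in atx1/2 replicate 2 only. Among conjugating enzymes UGT71D1 had 1302 bp in Col-0 replicate 1 and 1314 and 1294 bp in atx1/2, and UGT76E11 had 1577, 1546, 1590 and 1632 bp in Col-0 replicate 2, jmj28-2 replicate 1 and both atx1/2 libraries. GSTF6 had narrow peaks of 565 and 575 bp in Col-0 alone, at percentiles 0.199 and 0.143, near the bottom of the lists. It belongs to a family with close copies, as above.

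Transporter genes had 16 members of 420 (3.81%), and 6 of 127 ABC transporter genes (4.72%) were members. Of protein-coding genes with a symbol, 3.34% were. Of the 16 regions both jmj28-2 libraries held the peak in 1 (against 33.6% of all members), both Col-0 libraries in 8 (against 41.9%) and both atx1/2 libraries in 10 (against 58.4%). SUC2, the phloem sucrose carrier gene, lacked a peak in jmj28-2 replicate 2 alone, with 1818 to 2035 bp elsewhere. KAT1, a potassium channel gene of guard cells, had 1790 bp in Col-0 replicate 2, 2036 bp in jmj28-2 replicate 2 and 1460 and 1645 bp in atx1/2. Both were chosen after their values were seen. ABCG19 had 2417 bp in Col-0 replicate 2 and 2433 bp in jmj28-2 replicate 2 and no peak elsewhere.

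Of 56 bHLH genes 6 were members (10.7%), and of 526 genes of the other transcription factor families 21 (3.99%). The share was 3.34% over protein-coding genes that have a symbol. GL3 and EGL3, the paired bHLH genes of trichome formation, were both members. GL3 lacked a peak in jmj28-2 replicate 1 alone, with 1339 to 1523 bp elsewhere. EGL3 had 1364 and 1517 bp in Col-0, but also 1419 bp in jmj28-2 replicate 1 and 1453 bp in atx1/2 replicate 1. SPCH, which starts the stomatal lineage, had 1963 and 1853 bp in jmj28-2, with 1865 bp in atx1/2 replicate 1, with none in Col-0. The zinc finger gene GIS, also of trichome formation, had 1587 and 1534 bp in jmj28-2, with 1754 and 1701 bp in atx1/2 and none in Col-0. LRL1, a bHLH gene of root hairs, had 1385 bp in Col-0 replicate 1 and 1383 and 1389 bp in atx1/2. AT1G22490, listed as bHLH94, had 1227 and 1241 bp in jmj28-2 alone. EGL3 and SPCH were chosen after their values were seen. Only GIS and AT1G22490 of these followed whole genotypes.

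The share of genes in member regions was 2.78% for WRKY, 2.38% for MYB and 4% for NAC genes. Over protein-coding genes with a symbol it was 3.34%. Of the genes with a peak in any library, the shares were 5.26%, 7.5% and 8.33%, against 4.49% for genes with a symbol. WRKY62 had 1583 bp in Col-0 replicate 1 and 1533 bp in atx1/2 replicate 1, and with WRKY54 it made 2 of 72 WRKY genes. MYB61, a regulator of wood and stomata, had 1981 bp in Col-0 replicate 2, 1959 bp in jmj28-2 replicate 2 and 1953 and 1848 bp in atx1/2. MYB50 had 1684 bp in Col-0 replicate 1, 1435 bp in jmj28-2 replicate 1 and 1708 and 1424 bp in atx1/2, which with MYB48 made 3 of 126 MYB genes. These regions were split within genotypes except for WRKY54 and MYB48. NAC1, a gene of lateral root formation, had 1113 bp in jmj28-2 replicate 2 and 1160 and 1131 bp in atx1/2, and NAC048 had 1510 bp in Col-0 replicate 1 and 1545 and 1332 bp in atx1/2. Of 100 NAC genes 4 were members. ZF14 had 1874 and 2030 bp in Col-0, with 1852 and 1727 bp in atx1/2 and none in jmj28-2, and OFP6 had 1196, 1178, 1179 and 1270 bp in Col-0 replicate 1, both jmj28-2 libraries and atx1/2 replicate 1.

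The cold regulators CBF2 and DREB1A, which is also called CBF3, are adjacent AP2/ERF genes and lacked a peak in atx1/2 replicate 2 alone. CBF2 had 1019 and 994 bp in Col-0, with 994 and 1025 bp in jmj28-2 and with 1047 bp in atx1/2 replicate 1, and DREB1A had 1135, 1106, 920, 1061 and 1468 bp in that order. AIL5, of the PLETHORA group, lacked a peak in atx1/2 replicate 1 alone. Both CBF genes are near copies of each other, so their reads may not be separable.

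Hormone genes included makers and breakers of the same hormones. Beside GA3OX1 and ATGA2OX1 stood YUC8 and YUC3, which encode enzymes of auxin synthesis. YUC8 had 1947 bp in Col-0 replicate 1, none in replicate 2 and 1879 to 2097 bp in the mutants, and YUC3 had none in Col-0 replicate 1, 1959 bp in replicate 2 and 1809 to 1929 bp in the mutants. AT1G77330, named ACC oxidase 5 in the gene table, lacked a peak in jmj28-2 replicate 1 alone. Of 9 auxin genes in member regions both atx1/2 libraries held the peak in 8, both jmj28-2 libraries in 4 and both Col-0 libraries in 1. Of the 9 genes of the other hormones both atx1/2 libraries held it in 8 and the Col-0 and jmj28-2 libraries in 4 each. Over all 911 members the peak was in both libraries in 58.4% for atx1/2, 33.6% for jmj28-2 and 41.9% for Col-0.

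Of 58 flowering and clock genes 3 (5.17%) were members, and of 40 light signalling genes 2 (5%), against 3.34% of protein-coding genes with a symbol. CCA1, a core gene of the circadian clock, had 1514 bp in Col-0 replicate 2, 1590 bp in jmj28-2 replicate 2 and 2073 and 1702 bp in atx1/2. COL2, a CONSTANS-like gene, had 1769 bp in Col-0 replicate 2 and 2027 and 2004 bp in atx1/2, and it shares its region with AT3G02370 and AT3G02390. TOE3, a repressor of flowering, had 1123 bp in Col-0 replicate 2 and 1155 bp in both atx1/2 libraries. In these 3 regions the 2 Col-0 libraries differed. BBX27 had a peak in both mutants and not in Col-0, with 1521, 1712, 1420 and 1486 bp, and PKS1, which encodes a phytochrome-binding protein, lacked a peak in jmj28-2 replicate 1 alone.

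Photosynthesis genes had 4 members of 65 (6.15%, against 3.34% of protein-coding genes with a symbol). Of these, 3 belong to gene families with near-identical copies. RBCS3B, of the Rubisco small subunit, had no peak in Col-0 replicate 1 and 684 to 959 bp elsewhere. LHCB2.2 had no peak in atx1/2 replicate 2 and 717 to 900 bp elsewhere. CAB1 lay in 2 member regions. The one on CAB1 itself had 692 bp in Col-0 replicate 1, none in replicate 2 and 691 to 822 bp in the mutants. The other, shared with NRPA2, a subunit gene of RNA polymerase I, had 965 bp in Col-0 replicate 2, 1099 and 1347 bp in jmj28-2, with 738 bp in atx1/2 replicate 1. The peaks of these 3 genes were narrower than the member median of 1400 bp in each library that held one. Those of the fructose-bisphosphate aldolase gene FBA5, chosen after its values were seen, were wider in 3 libraries, with 1197 and 2220 bp in the wild type, 2131 and 2082 bp in jmj28-2, with 1072 bp in atx1/2 replicate 1.

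Of 326 microRNA genes, 7 (2.15%) overlapped a member region by at least 1 bp and 90 (27.6%) a region held by all 6 libraries. Over all protein-coding genes these shares were 2.95% and 60.8%, at an overlap of at least 200 bp. By the naming rule the microRNA genes were MIR4221, MIR5641 and MIR864. MIR4221 had 1741 bp in Col-0 replicate 1, 776 bp in jmj28-2 replicate 2 and 1823 and 1782 bp in atx1/2. MIR5641 lacked a peak in jmj28-2 replicate 2 alone, and MIR864 in Col-0 replicate 2 alone. MIR160a, whose product targets auxin response factors, was chosen after its values were seen. It had 1449 and 1418 bp in jmj28-2, with 1486 and 1554 bp in atx1/2 and no peak in Col-0.

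Members were spread over the genome. Their share of regions was 6.78% on chromosome 1, 5.90% on chromosome 2, 6.58% on chromosome 3, 6.47% on chromosome 4 and 5.28% on chromosome 5. The nearest region held by all 6 libraries lay a median of 2097 bp away, against 1684 bp between those regions themselves, and 59 members (6.48%) lay over 10 kb from one, against 3.47%. Of the members, 146 stood next to another member with no other region between, in 70 runs of at most 3. Of the 76 neighbouring pairs in these runs, 10 had the same pattern over the 6 libraries.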

How the data were processed

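Peaks of H3K4me3 ChIP-seq had been called per library, and the deposited lists give each peak's position and score, where the score is the authors' value for that peak, used only to rank within a list or to apply 1 minimum to every list. The submitters' processing notes list Bowtie2 2.2.8, MACS 1.4, ChIPseeker, deepTools 2.4.1 and TAIR10 with no role for any. The positions (deposited start and end, unit: other) were counted from 1. Peaks sharing at least 1 bp were merged into regions with Python 3.11.15, pandas 2.3.3 and numpy 2.4.6, and drawn with matplotlib 3.10.9. The merging and counting were tested on simulated lists of 14000 regions and returned all 8 counts exactly. The simulated regions lay too far apart to touch, so splitting and fusing of neighbouring peaks was not tested.

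Genes came from a RefSeq table of TAIR10.1, by largest overlap of at least 200 bp. In 110 of 110 windows of 1000 kb the regions held by all libraries overlapped genes best at a shift of at most 400 bp. The table gives no strand, so exon, intron and start site annotation was not used, and no sequence is printed. All coordinates are TAIR10 regions. The 25 gene lists match by symbol or synonym, a symbol shared by several genes counts each, and a gene in several member regions is counted once, by the region with the highest of the lowest score percentiles. A few symbols with a second meaning were dropped from the lists after the values were seen. For H3K4 methylation and JmjC genes 25 of 36 symbols matched. Members and lists were chosen with earlier results of these data known.

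Named genes are the 5 regions with a symbol per pattern of whole genotypes (3 for regions in 5 libraries and for split genotypes) with the highest value of their lowest score percentile, and up to 3 genes per list by the same measure. A withheld item among them is not reported here. The exact permutation test used all pairings of the 6 libraries. Alternatives were a score minimum of 100, equal numbers of peaks, 200 bp of peak, merging over 200 bp, leaving out each library, a 1 bp gene overlap and exchanging the held-out libraries. The peak lists give no read depth, so no counting interval is given.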

Additional observations from a re-analysis of the deposited data

How the results depend on the processing

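The number of members was 861 to 967, and the number with both libraries of every genotype alike 272 to 299, under a score minimum of 100, equal numbers of peaks, at least 200 bp of peak and merging over 200 bp. Similar totals do not mean the same regions. Only 113 of the 911 members reached a score of 100 in any library, so most of the 967 under that minimum were other regions. Requiring 200 bp of peak changed no count. Equal numbers of peaks gave 58 regions without a peak in atx1/2 alone, 58 with a peak in Col-0 alone, 48 with a peak in atx1/2 alone and 23 with a peak in jmj28-2 alone. A score of at least 100 gave 32 regions with a peak in Col-0 alone and 23 with a peak in jmj28-2 alone. Nearly all of these lay outside the main counts of the same patterns. The cause of the changed counts was not tested. Leaving out 1 library at a time, with the remaining library standing for its genotype, gave 774 to 830 members and 276 to 410 alike. By pattern it gave 62 to 103 regions with a peak in Col-0 alone, 17 to 51 in jmj28-2 alone and 99 to 143 in atx1/2 alone. Regions lacking a peak in Col-0 alone numbered 52 to 109, in jmj28-2 alone 75 to 119 and in atx1/2 alone 41 to 65. The highest values came from leaving out a library of the genotype named, since 1 library then decides. With a gene overlap of 1 bp, 93.7% of members held a protein-coding gene. No paired analysis was possible because the genotype results are counts of regions with a peak and come from no test. The planned search for a promoter motif was not run, since no promoter sequence was used here. Without read depth, a library that lacks a peak cannot be told from one whose signal fell just under the caller's threshold.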

Other observations

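Neighbouring members with the same pattern were few, with 9 such stretches. RK3, B120 and CRK29 formed the only stretch of 3 regions. CRK21 and CRK22 (chromosome 4, 12178786 to 12183625) lacked a peak in jmj28-2 alone, and CBF2 and DREB1A (chromosome 4, 13015029 to 13019486) lacked one in atx1/2 replicate 2 alone. PAN, a bZIP gene of floral organ number, and AT1G68650 (chromosome 1, 25771133 to 25776748) lacked a peak in atx1/2 alone. GolS3, a galactinol synthase gene, and AT1G09390 had a peak in atx1/2 alone. The peaks of AT1G09390 had scores of 20.05 and 20.81, near the lowest score in a list. The stretch of AGP31 and AT1G28310 lacked a peak in jmj28-2 replicate 1 alone.

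YABBY genes set the lower side of leaves, and YAB2, YAB3 and YAB5 were members, noticed after their values were seen. YAB3 lacked a peak in Col-0 replicate 2 alone, with 1870 to 2107 bp elsewhere. YAB2 had 1281, 1282 and 1381 bp in Col-0 replicate 2, jmj28-2 replicate 2 and atx1/2 replicate 1, and YAB5 had 1717 and 1729 bp in Col-0 replicate 2 and atx1/2 replicate 2.

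Peaks on the chloroplast genome, which were left out of all regions, numbered 1 and 3 in the Col-0 lists, 6 and 3 in the jmj28-2 lists and 0 in both atx1/2 lists.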
